A study of Mus musculus with 3 samples.

Results

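Lyz1, Mmp7, Ang4, Itln1, Defa3, Habp2 and Nupr1, genes expressed by Paneth cells, were followed in follicle-associated epithelium of the mouse small intestine. The members were chosen by symbol: every probe set, the group of short probes that reports one transcript on an Affymetrix array, whose only gene symbol in the platform annotation is one of these 7. This gave 12 probe sets of 45037 that are not controls: 3 for Lyz1, 2 each for Ang4, Habp2 and Nupr1, and 1 each for Mmp7, Itln1 and Defa3. The 3 arrays hold RNA of this epithelium from C57BL/6 mice that were not treated, 1 from wild type and 2 labelled as depleted of RBP-J by VillinCre-Rbpjflox/flox. In that line Cre recombinase, expressed in the gut epithelium from the Villin promoter, excises Rbpj. The labels give neither age nor sex and do not say whether the arrays labelled KO1 and KO2, called the first and the second depleted array here, came from separate animals, so their spread may be technical.

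Paneth cells sit at the base of small intestinal crypts and release granules of antimicrobial proteins into the lumen. They arise from progenitors that escape Notch signalling, whose nuclear effector is the DNA-binding protein RBP-J, and they mature under Wnt signalling through TCF factors. The granules carry lysozyme, alpha-defensins, the ribonuclease Ang4 and the lectin Itln1, and the protease Mmp7 cuts pro-defensins into their active form. Follicle-associated epithelium covers the lymphoid follicles of Peyer's patches, is renewed from neighbouring crypts and holds the antigen-sampling M cells. The labels do not say whether crypts were part of the tissue taken.

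Values are MAS5 intensities in multiples of the array's median, so a value of 1 is the median probe set. Differences are on the log2(value + 0.248) scale, depleted minus wild type. Log2 differences were summarized over the 27027 probe sets whose mean was at or above 0.598. Their median was -0.02 for the first depleted array but 0.18 for the second. The second median depended on intensity: it was 0.10 without that limit and 0.24 with the limit raised to the 60th percentile. The shift of the second array is therefore not of 1 size for every value given below. Quantile normalization put both medians between -0.012 and 0.008, and an equal 75th percentile between 0.0078 and 0.029. On 3 probe sets Rbpj read 7.15, 5.37 and 3.79 for wild type, 2.72, 4.14 and 2.30 for the first depleted array and 5.74, 4.92 and 4.21 for the second, and none of them passed the test. The sources used here do not place these probes inside or outside the excised exons, so they do not check the labels. Xist read between 0.040 and 0.495 over its 3 named probe sets for wild type but between 17.9 and 52.1 for the depleted arrays. The Y-linked Eif2s3y, Kdm5d and Uty ran the opposite way. By these genes the wild type array is male and both depleted arrays are female. Genotype and sex therefore cannot be told apart as sources of any difference below, whichever chromosome the gene lies on. RNA quality was read from the Gapdh controls, whose 3' to 5' ratio was 1.83 for wild type, 2.28 for the first depleted array and 1.54 for the second. For Actb the same ratio was 1.11, 1.15 and 1.02. Markers of the labelled tissue were present: Spib, a transcription factor of M cells, read 38.9 (wild type), 33.8 (first depleted) and 67.6 (second depleted), and the brush border gene Vil1 70.7, 85.3 and 78.6.

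No Paneth cell product passed limma's test of depleted against wild type. For 4 of the 7 genes the first depleted array stood above both other arrays on every probe set of the gene. Mmp7, Ang4, Itln1 and Nupr1 read 1.79 to 2.55 times the wild type intensity in the first depleted array over their 6 probe sets, and 0.936 to 1.32 times in the second. The bright Lyz1 probe sets were 1.18 to 1.23 times wild type in both depleted arrays, Defa3 was lower in both, and Habp2 was dim everywhere. Of the 12 probe sets, 11 passed the intensity filter and 1 of Habp2 did not.

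Over the 11 tested probe sets 0 were called by limma at an adjusted p under 0.05, against 0.0888% of all probe sets tested. The calls over all probe sets were 24, 9 higher and 15 lower, or 4 higher and 2 lower with quantile normalization. Among the 24 were probe sets of Xist, which were higher, and of Eif2s3y, Kdm5d and Uty, which were lower. Genotype and sex are not separated in this share. The limma adjusted p was 0.9998 for each of the 11, and 1, which was higher, had an unadjusted p under 0.05, against 2.26% of all in either direction and 1.32% higher. In the first depleted array 9 of the 11 were higher than wild type, where 48.4% of all probe sets were, and 5 were at least 2-fold higher, where 3.67% of all were. In the second depleted array 7 of the 11 were higher than wild type, against 64.6% of all, and 0 were at least 2-fold higher, against 3.94%. Higher in both were 7, against 35.9% of all, and lower in both were 2, against 22.9%. At least 2-fold higher in both were 0, against 0.892% of all, and at least 2-fold lower in both were 0, against 0.673%. In 9 of the 11 the first depleted array read higher than the second, which held for 36.4% of all probe sets; the 9 include Habp2 1443696_s_at, where both lay below wild type. The probe sets of 1 gene are not independent, and the counts are descriptions. The wild type array has no replicate, so the spread in limma comes from the pair of depleted arrays alone (1 residual degree of freedom, pooled over probe sets), and an exact permutation test of 1 array against 2 cannot give a p below 0.333.

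**Figure D1:**
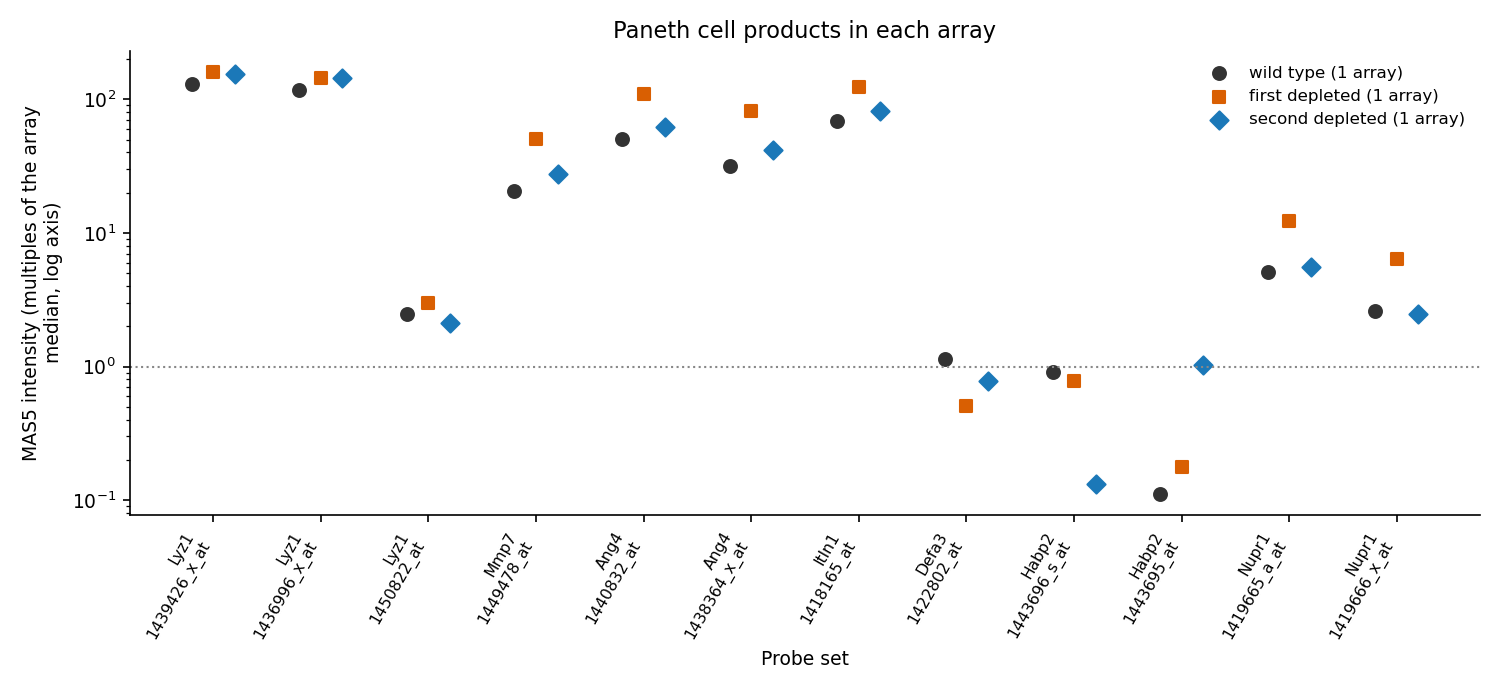
MAS5 intensity (multiples of the array median, log axis) of the 12 probe sets of the 7 Paneth cell products, 1 point per array, with a dotted line at the array median. For Mmp7, Ang4, Itln1 and Nupr1 the square of the first depleted array lies above the points of wild type and of the second depleted array, and Defa3 and Habp2 lie around or under the line.

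Mmp7, matrilysin, is the metalloprotease that activates mouse alpha-defensins inside Paneth cells. It read 20.8 for wild type, 50.8 for the first depleted array and 27.4 for the second. The first depleted array was the highest of the 3 by 1.86 times over the second, which lay closer to wild type. The log2 differences were 1.28 and 0.39, with a mean of 0.84 (SE 0.44, n = 2 depleted arrays, limma adjusted p = 0.9998), and the mean intensity of the depleted arrays was 39.1 ± 16.6 (SD, n = 2). Both depleted arrays lay above wild type, the second by 0.39 where the median of all probe sets was 0.18. With quantile normalization the second depleted array lay at 0.09. The mean difference did not pass the test.

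The Mmp7 start region is shown because TCF factors, which act in Paneth cell maturation, bind the letters CTTTGAT. The windows searched, 250 bases before to 50 after each RefSeq start (GRCm38.p6), were found for 6 of the 7 genes. In the stretch below, from 150 bases before the start to 20 after it on the plus strand (chr9:7691940-7692109), capitals mark the reverse complement of that motif, which begins at position 5 after the start.
Mmp7: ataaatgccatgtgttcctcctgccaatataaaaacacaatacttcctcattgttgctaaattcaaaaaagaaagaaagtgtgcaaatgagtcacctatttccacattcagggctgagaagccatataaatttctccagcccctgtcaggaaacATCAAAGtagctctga
Among the windows of the 6 genes, on both strands, Mmp7 was the one with this motif, and 3.73% of all 32851 promoter windows hold it. Mmp7 has a second RefSeq start, whose window overlaps the first and holds the same match, and also a match to TGGGAA, the core letters bound by RBP-J, at position -113. A match of letters does not show binding.

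Ang4 encodes a secreted ribonuclease of the angiogenin family that kills gut microbes. Probe set 1440832_at read 50.01 for wild type, 110 for the first depleted array and 61.7 for the second. Probe set 1438364_x_at read 31.9, 81.2 and 41.7 in the same order. Both probe sets put the first depleted array highest and the second between it and wild type. The log2 differences were 1.13 and 0.30 for the first probe set (mean 0.72, SE 0.41, limma adjusted p = 0.9998) and 1.34 and 0.38 for the other (mean 0.86, SE 0.42, limma adjusted p = 0.9998). The latter had an unadjusted limma p of 0.0427, the only one under 0.05 among the members. Its suffix, x, marks probes that also match other sequences, so signal from related ribonucleases cannot be separated in it. With quantile normalization 1440832_at was below wild type in the second depleted array, at -0.07, and 1438364_x_at at 0.03.

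Itln1, intelectin, is a lectin that binds sugars on microbial surfaces and is made by Paneth and goblet cells. It read 68.8 for wild type, 123 for the first depleted array and 82.0 for the second. Again the first depleted array was the highest. The log2 differences were 0.83 and 0.25 (mean 0.54, SE 0.39, limma adjusted p = 0.9998) and the second is set against a median of 0.18 over all probe sets. With quantile normalization it was -0.14 in the second.

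Lyz1, the lysozyme of Paneth cells, cleaves bacterial cell walls. Probe set 1439426_x_at read 130 for wild type, 160 for the first depleted array and 153 for the second, and 1436996_x_at read 118, 144 and 145. On both, the depleted arrays lay together above wild type, with SDs between them of 5.08 and 0.938 intensity units. Their log2 differences were 0.30 and 0.23 (mean 0.27, SE 0.37) and 0.28 and 0.30 (mean 0.29, SE 0.37), and the limma adjusted p was 0.9998 for each. With quantile normalization the differences of the second depleted array were -0.13 and -0.06. The remaining probe set, 1450822_at, read 2.46, 3.01 and 2.13, so it was lower than wild type in the second depleted array, at a log2 difference of -0.19. The 3 probe sets of Lyz1 therefore gave 1 direction in the first depleted array and both directions in the second.

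Lyz1 lies beside Lyz2, the lysozyme of macrophages, and both bright Lyz1 probe sets carry the x suffix. The start regions of the pair are shown because they illustrate how close the copies are. Each stretch runs from 150 bases before the RefSeq start to 20 after it, on the minus strand of GRCm38.p6 (chr10:117292849-117293018 for Lyz1 and chr10:117282253-117282422 for Lyz2), and capitals mark positions that differ.
Lyz1: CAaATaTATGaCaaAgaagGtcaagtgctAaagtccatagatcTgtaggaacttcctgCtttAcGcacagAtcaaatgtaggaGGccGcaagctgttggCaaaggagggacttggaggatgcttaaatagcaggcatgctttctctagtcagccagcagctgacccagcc
Lyz2: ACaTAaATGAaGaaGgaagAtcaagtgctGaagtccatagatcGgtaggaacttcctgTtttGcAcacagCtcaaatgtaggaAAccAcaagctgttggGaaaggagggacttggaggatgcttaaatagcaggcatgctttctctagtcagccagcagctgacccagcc
Of these 170 positions 149 are identical, 87.6%, and over the whole windows of 300 bases, compared without gaps, 67.0%. The TGGGAA letters occur in the Lyz2 window, at position -54, and not in that of Lyz1. The probe sequences themselves were not used here, so how far the Lyz1 probe sets also read Lyz2 was not tested. Lyz2 read 56.8 for wild type, 55.7 for the first depleted array and 70.0 for the second, log2 differences of -0.03 and 0.30.

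Defa3 is 1 of the many alpha-defensins, small pore-forming peptides of the granule. It read 1.13 for wild type, 0.505 for the first depleted array and 0.780 for the second. Both depleted values lay below the array median and below wild type. The log2 differences were -0.87 and -0.42 (mean -0.65, SE 0.62, limma adjusted p = 0.9998), and with a pseudocount of 5 they were -0.16 and -0.09, since this is a dim probe set. The brightest alpha-defensin probe set with 1 symbol, that of Defa39, ran the opposite way at 102 for wild type against 123 and 125 in the depleted arrays, log2 differences of 0.27 and 0.29. Defa31 read 2.58, 2.39 and 2.74. These near-identical genes share probes, so which defensin each probe set reads is uncertain, and 2 more probe sets that name several alpha-defensins were not used. The 3 tested alpha-defensins had a median of -0.10 for the first depleted array and 0.08 for the second, and 0 were called.

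Habp2, a secreted serine protease, was dim on both probe sets. Probe set 1443696_s_at read 0.907 for wild type, 0.773 for the first depleted array and 0.133 for the second. Probe set 1443695_at, which did not pass the filter, read 0.112, 0.177 and 1.04. The second depleted array was thus the lowest on one probe set and the highest on the other, with log2 differences of -1.60 and 1.83. The low end of both lies under the pseudocount of 0.248, which sets the size of these differences: with a pseudocount of 5 they were -0.20 and 0.24. The data give no direction for Habp2.

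Nupr1, a small chromatin-associated protein induced by stress, is expressed by Paneth cells but is not a granule protein. Probe set 1419665_a_at read 5.13 for wild type, 12.2 for the first depleted array and 5.58 for the second. Probe set 1419666_x_at read 2.62, 6.38 and 2.45. Both put the first depleted array well above the other arrays and the second next to wild type. The log2 difference was 1.21 on each probe set in the first depleted array, and 0.12 and -0.09 in the second (means 0.66, SE 0.50, and 0.56, SE 0.53, limma adjusted p = 0.9998 for each). In the second depleted array both lie under the median of 0.18 over all probe sets.

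The Nupr1 promoter is shown because besides the second Mmp7 window it was the one member window with the RBP-J core TGGGAA, which 25.6% of all windows hold. Capitals mark the match, which begins at position -125, in the minus-strand stretch chr7:126625451-126625620 of GRCm38.p6.
Nupr1: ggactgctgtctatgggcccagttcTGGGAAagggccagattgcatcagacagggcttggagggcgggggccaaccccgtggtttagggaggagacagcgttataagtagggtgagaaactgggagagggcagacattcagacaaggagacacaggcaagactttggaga
The windows of Ang4, Itln1 and Habp2 held neither motif, which says only that these letters are not in the bases searched, and for Defa3 no window was used.

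**Figure D2:**
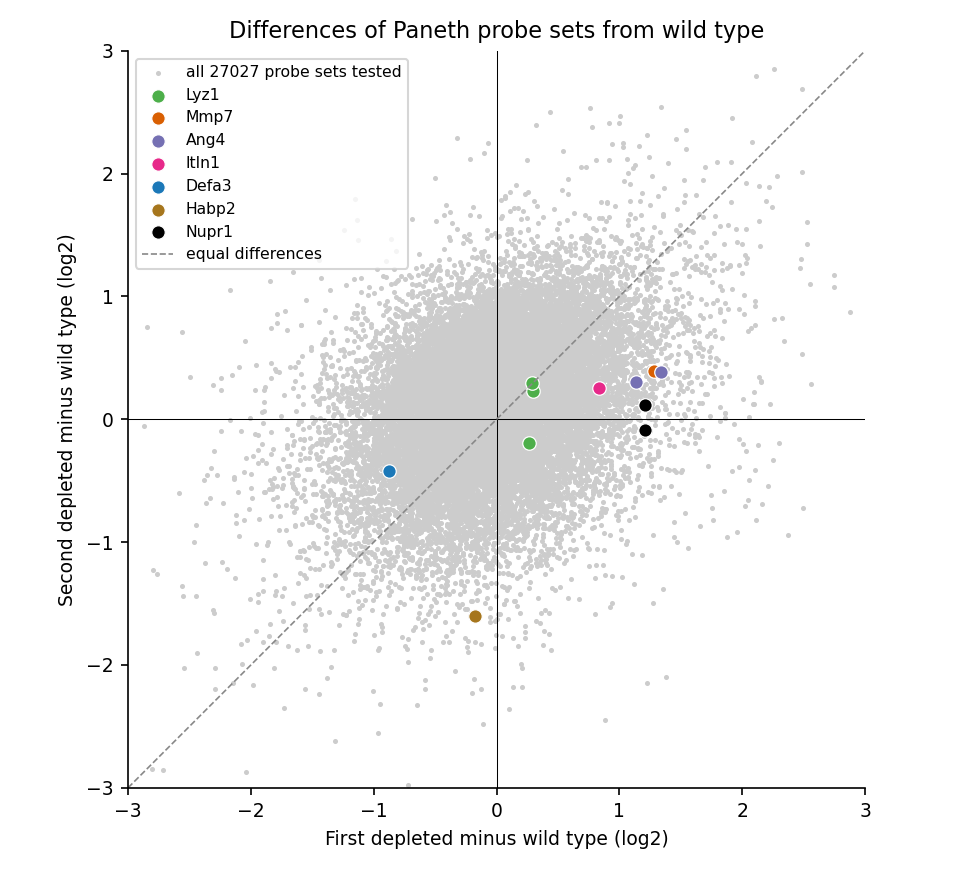
Log2 difference from wild type in the first depleted array (x axis) and in the second (y axis) for the 27027 probe sets tested (grey; 28 lie beyond the axes) and the 11 tested member probe sets (coloured by gene), with a dashed line where both are equal. Mmp7, Ang4, Itln1 and Nupr1 lie to the right, between 0.83 and 1.34 on the x axis and between -0.09 and 0.39 on the y axis. Both axes share the wild type array.

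The direction in the second depleted array depended on the scaling between arrays. As deposited, 7 of the 11 tested probe sets were higher than wild type there. The same 75th percentile per array left 6 and quantile normalization 2, Mmp7 at 0.09 and the x-suffixed Ang4 probe set at 0.03. In the first depleted array 9 were higher under each of these 3 scalings. The 5 probe sets at least 2-fold higher there, those of Mmp7, Ang4 and Nupr1, were also 5 under each, and 3 with a pseudocount of 5.

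**Figure D3:**
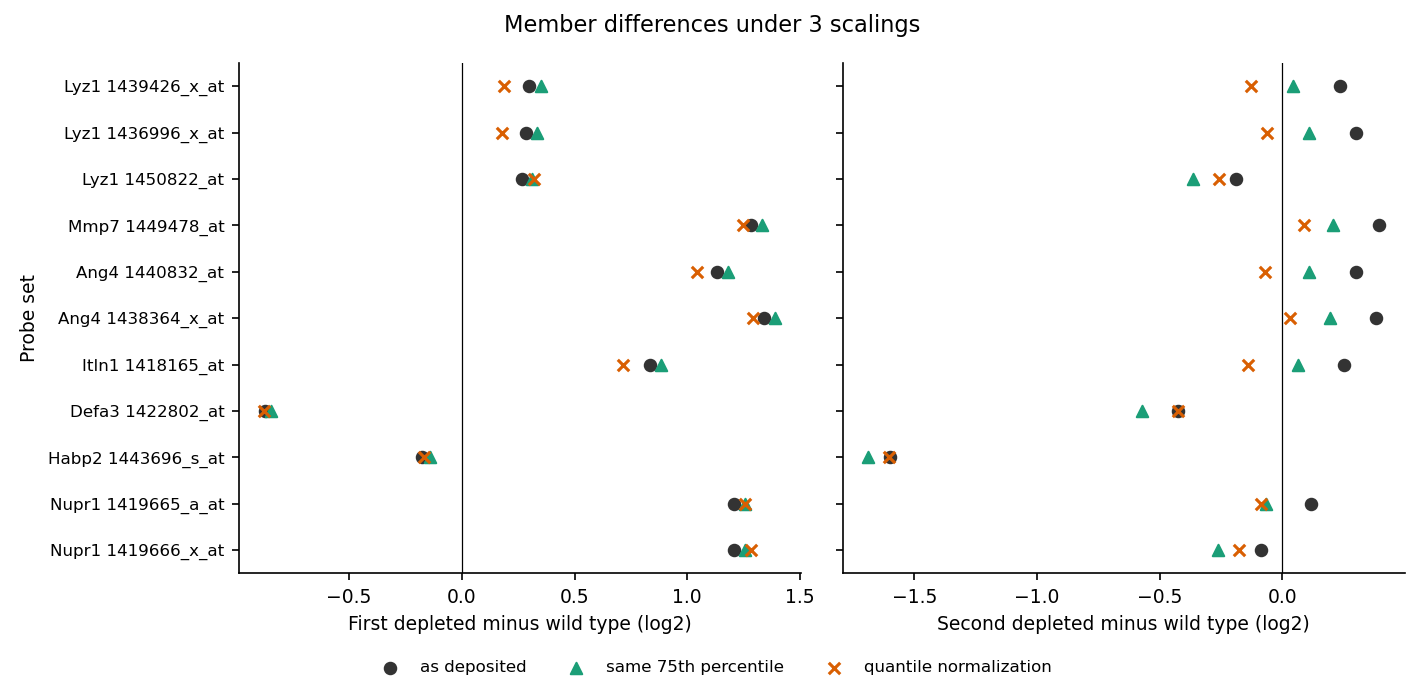
Log2 difference from wild type of the 11 tested member probe sets in the first depleted array (left) and the second (right), as deposited (circles), with the same 75th percentile per array (triangles) and after quantile normalization (crosses). In the left panel the 3 marks of each probe set stay on 1 side of 0, and in the right panel those of Ang4 1440832_at, Itln1, Nupr1 1419665_a_at and the bright Lyz1 probe sets cross it.

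Other granule proteins also had a raised median in the first depleted array. Of 15 tested genes 0 were called. In both depleted arrays 10 were higher than wild type and 2 lower, against 35.9% and 22.9% of all probe sets tested. Here and in the lists below the brightest probe set of each gene is counted, while these shares cover every probe set tested. Over the brightest probe set of each gene the median of the second depleted array was 0.22, against 0.18 over all tested. The medians of the 15 genes were 0.62 and 0.22. With quantile normalization the second median was -0.09 and 4 genes were higher in both. Mptx1, a mucosal pentraxin, Clps, the colipase, and Pnliprp2, a lipase relative, were the 3 at least 2-fold higher in the first depleted array and were singled out after their values were seen. Mptx1 read 3.41 for wild type, 15.8 for the first depleted array and 4.39 for the second. Clps read 10.5, 24.6 and 13.4 on its brighter probe set, and Pnliprp2 8.53, 20.1 and 9.99. In each the second depleted array lay closer to wild type than to the first depleted array, as for Nupr1 and Mmp7. Rnase1 and Rnase4, secreted ribonucleases, read 20.01, 36.01 and 22.99, and 23.6, 34.7 and 24.9. Spink4, a protease inhibitor of secretory cells, read 100 in wild type against 155 and 125. Pla2g2a, the secretory phospholipase of granules, whose gene is disrupted in C57BL/6, read 1.60 against 2.78 and 2.998, and Ang3 0.092 against 0.301 and 0.263, too dim to be tested.

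The Reg3 lectins, which Paneth cells share with enterocytes, differed among themselves in their order. Reg3b read 150 for wild type, 122 for the first depleted array and 198 for the second. Reg3g read 135, 131 and 175. The second depleted array was the highest of the 3 for both, and the first was the lowest. Reg3a, at 25.7, 14.9 and 22.2, was highest in wild type. The dim Reg3d, at 0.621, 1.33 and 0.715, was highest in the first depleted array, and both were added after their values were seen.

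For genes of the Paneth niche and surface the first depleted array read higher than the second in 9 of 12, against 36.4% of all probe sets, but both depleted arrays were not on 1 side of wild type throughout. Of 12 tested genes 0 were called. In both depleted arrays 5 were higher and 3 lower, against 35.9% and 22.9% of all probe sets tested. The medians were 0.18 and 0.02, the second turning to -0.16 with quantile normalization. Fzd5, the Wnt receptor needed for Paneth cell maturation, read 26.6 for wild type, 35.6 for the first depleted array and 42.1 for the second. Cd24a, a surface glycoprotein of Paneth cells, read 110, 109 and 107 on its brightest probe set, but 84.2, 114 and 111 and 84.0, 99.3 and 103 on 2 others, so its probe sets disagreed. Dll1, a Notch ligand, read 12.3, 13.3 and 8.32, Efnb1, an ephrin, 9.46, 11.2 and 8.15, and the growth factor gene Tgfa 3.42, 5.50 and 4.09. On these brightest probe sets both depleted arrays exceeded wild type for Fzd5 and Tgfa, while for Dll1 and Efnb1 the second depleted array was the lowest. The receptor gene Fgfrl1 read 3.03, 3.76 and 3.22, and Sntb1, a syntrophin, 0.440, 0.961 and 0.776. Dimmer probe sets of Fzd5, Efnb1, Fgfrl1 and Sntb1 did not all give the direction of the brightest one.

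Of 19 tested genes of Paneth fate and secretory machinery 0 were called. In both depleted arrays 6 were higher and 2 lower, against 35.9% and 22.9% of all probe sets tested. The medians were 0.09 and 0.05, the second turning to -0.14 with quantile normalization. Xbp1, the transcription factor of the secretory stress response, read 41.5 for wild type, 42.8 for the first depleted array and 40.9 for the second. Ctnnb1, for beta-catenin, read 100 against 104 and 136, and Tcf7l2, its TCF partner, 18.7 against 17.6 and 26.1. On these brightest probe sets the 3 did not share the order of Mmp7, and dimmer probe sets of Xbp1, Ctnnb1, Tcf7l2, Hnf4a and Cftr did not all give the same directions. Ern2, an endoplasmic reticulum stress sensor of mucosal cells, and Spdef, a transcription factor of goblet and Paneth maturation, were the 2 at least 2-fold higher in the first depleted array and were singled out after their values were seen. Ern2 read 1.13, 5.46 and 0.726, and Spdef 2.38, 5.18 and 2.46. Irgm1, a GTPase of autophagy, read 5.14 in wild type against 2.78 and 2.61, and Ern1 3.39 against 4.14 and 5.23. Hnf4a, a hepatocyte nuclear factor, read between 76.4 and 89.1, and the chloride channel gene Cftr between 30.6 and 35.9. The potassium channel gene Kcnn4 read 11.6, 13.3 and 29.9.

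Markers of other secretory cells also had their highest summed intensity in the first depleted array. Of 16 goblet cell markers the first depleted array exceeded wild type for 16, against 48.4% of all probe sets tested. The second exceeded it for 11, against 64.6% of all. The medians were 0.60 and 0.24, and 0 of these markers were called. Their summed intensity was 766 for wild type, 1193 for the first depleted array and 1013 for the second. Enteroendocrine markers had medians of 0.57 and 0.09 over 13 genes with sums of 179, 288 and 187, and tuft cell markers 0.76 and 0.05 over 7 tested genes with sums of 26.4, 42.9 and 25.3 over 8. For comparison, the summed intensity of the 7 Paneth members was 277, 457 and 331. With quantile normalization the second medians of the goblet, enteroendocrine and tuft lists were -0.12, -0.17 and -0.15. Spink4 belongs to both the goblet and the granule list. The part of these cells in the Paneth values was not tested. In bulk tissue a different number of cells of a type and a different amount of RNA per cell cannot be told apart.

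As deposited, markers of absorptive enterocytes, M cells and B cells had another order. Enterocyte markers had medians of 0.17 and 0.36 over 11 genes, with sums of 1141, 1300 and 1487 in wild type, the first and the second depleted array. With quantile normalization the enterocyte medians were 0.06 and -0.04, and with the same 75th percentile 0.22 and 0.17. Under both of these scalings the first exceeded the second, so the enterocyte order depended on the scaling. M cell markers had medians of 0.01 and 0.58 over 11 genes, with sums of 416, 458 and 608. B cell markers had medians of -1.05 and -0.02 over 10 genes, with sums of 48.6, 21.3 and 50.8. With quantile normalization the M cell medians were -0.05 and 0.20 and the B cell medians -1.06 and -0.09. The first depleted array, in which Mmp7, Ang4, Itln1 and Nupr1 read highest and Defa3 lowest, was thus also the one where B cell markers read lowest. Its 3' to 5' ratio was the highest, by more for Gapdh than for Actb. The part of these in the Paneth values was not tested. Macrophage and neutrophil markers, which include Lyz2, summed to 81.7, 83.8 and 106, and fibroblast markers to 15.1, 14.7 and 22.5. Stem cell markers, of the crypt base cells next to Paneth cells, summed to 146, 131 and 153, with medians of 0.16 and 0.14 over 10 genes. Pancreatic acinar markers, listed because Clps and Pnliprp2 are also pancreatic genes, summed to 73.8, 93.5 and 144, most of it from Reg1, also a gut gene, at 69.7, 88.8 and 138. Of their 9 genes with a probe set 4 were bright enough to be tested, and Cela1, an elastase, read 1.72, 2.10 and 2.06. No marker on these lists was listed at 0 in any array, and 0 were called.

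**Figure D4:**
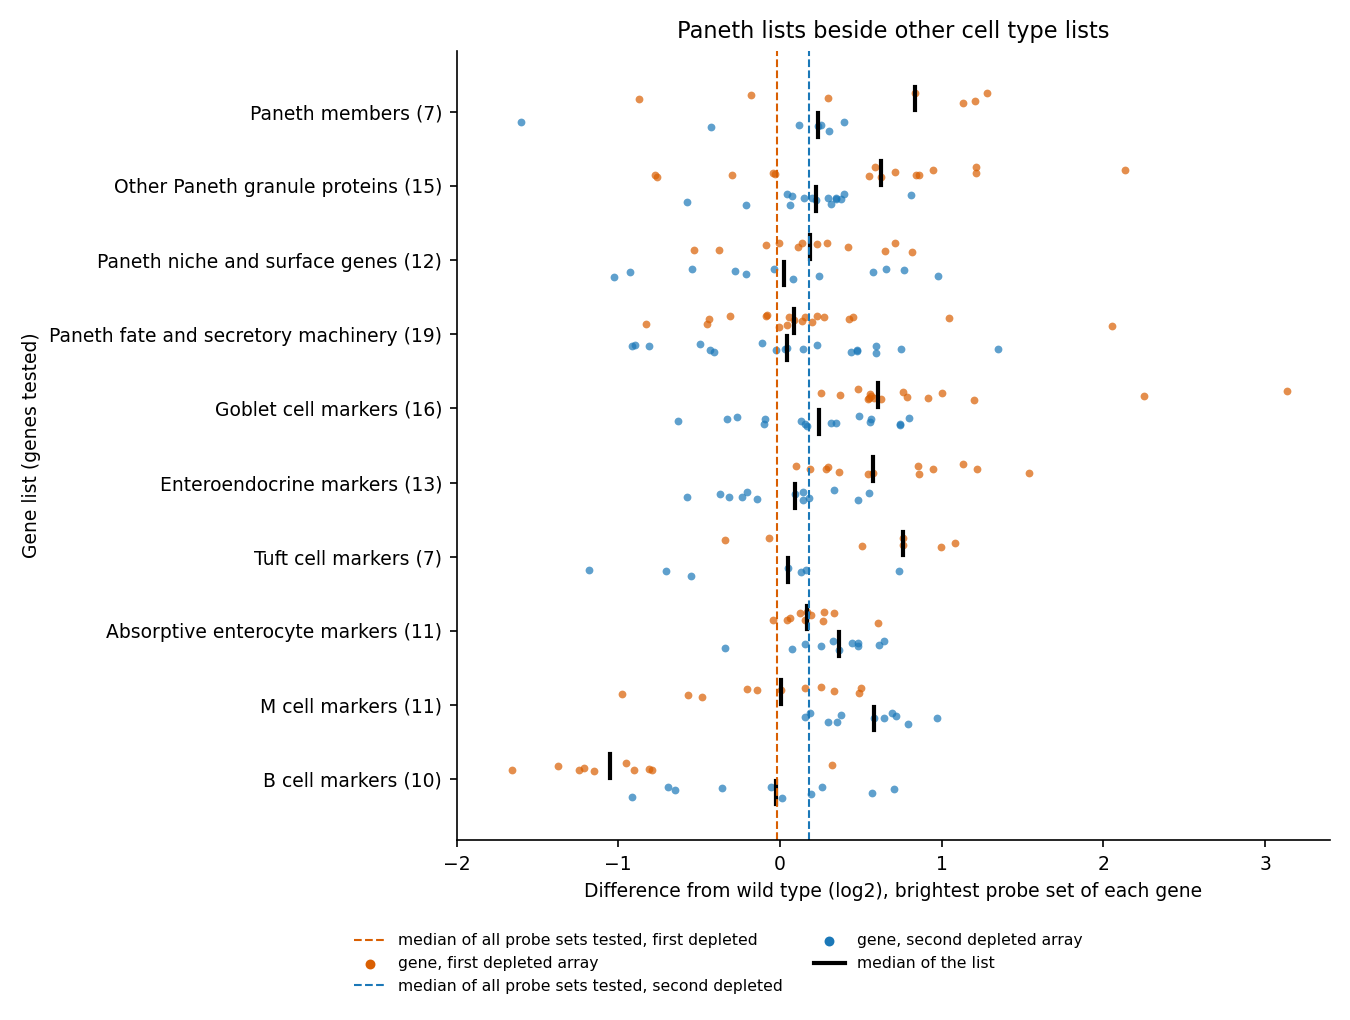
Log2 difference from wild type of each tested gene (brightest probe set) in the first depleted array (upper row of each list) and the second (lower row) for 10 gene lists, with list medians as black bars and the medians of all probe sets as dashed lines. In the first depleted array the medians of the Paneth member, granule, goblet, enteroendocrine and tuft lists lie between 0.57 and 0.83. Those of the Paneth niche and fate lists lie at 0.18 and 0.09, and that of B cell markers at -1.05. The alpha-defensin list, with a median of -0.10 there, is not shown.

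The genes most like each member were taken as those with the smallest Euclidean distance in the 2 log2 differences, over 5762 genes with a mean intensity of at least 5. With 3 arrays and a shared wild type value this is a weak measure of likeness. Nearest to Mmp7 were Nmrk1 (distance 0.028), Rasgef1b (0.082) and Clps (0.082), and nearest to the brighter Ang4 probe set were Slc11a2 (0.068), Scin (0.073) and Clps (0.094). Clps thus stood near both. Itln1 lay nearest to H2-T3 (0.018), Elapor1 (0.048) and Grb7 (0.055), and Nupr1 to Slc25a35 (0.017), Serpina1b (0.058) and Elmod3 (0.082). Lyz1, whose differences were small, lay nearest to Smim10l1 (0.012), Lrpap1 (0.017) and Zfp995 (0.017). Nearest to the dim Defa3 were Gnptab (0.025), Timm22 (0.030) and Zdhhc17 (0.050). Habp2 had no gene closer than Ppp6r1 (0.22).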

How the data were processed

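Each probe set has 1 deposited intensity per array on a linear scale, and MAS5 is the tool named, per the submitters' processing notes (version not given in the sources used here). The deposited values have a median of 1 in each array. Probe sets were named by the platform annotation: of 45037 that are not controls 34945 had 1 symbol, and only these entered gene results. Values were used without further scaling as log2(value + 0.248), the 25th percentile of all values. The 27027 probe sets with a mean at or above the 40th percentile were fitted in R 4.3.3 with limma 3.58.1 (lmFit, eBayes with an intensity trend, 207 prior degrees of freedom), with Benjamini-Hochberg adjustment over all of them. For the single wild type array limma assumes the variance of the depleted arrays. The fit was tested on simulated data in which every array had the same spread, so that test cannot check this assumption.

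The members, gene lists, motifs and tests were chosen with earlier results of these data known. Lists use the brightest probe set of each gene. Named are all member probe sets, the brightest genes of each list (up to 6 for Paneth lists, up to 2 for other cells) and, for Paneth lists, the 2 with the largest difference in 1 direction in both depleted arrays, and the 3 genes nearest to each member. Not every gene the rule allows is named. Promoter sequences are from RefSeq (GRCm38.p6). Alternatives covered the pseudocount, filter, scaling, variance model, brightest probe set per gene and leaving out each depleted array. Only arrays were measured, so no read depth applies and their number limits the precision.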

Additional observations from a re-analysis of the deposited data

How the results depend on the processing

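None of the 12 member probe sets was called under any alternative that allowed a test, and the lowest limma adjusted p among them ranged from 0.9997 to 1 over these alternatives. The mean log2 difference of Lyz1 1450822_at, 0.04 as deposited, was -0.0249 with the same 75th percentile per array. The other member probe sets kept the direction of their mean under each change of pseudocount, filter, scaling or variance model. With the second depleted array alone, Lyz1 1450822_at was -0.19 and Nupr1 1419666_x_at -0.09, and the others kept their direction. Over all probe sets, limma called 24, against 2 unfiltered, 15 when the filter was raised to the 60th percentile, 6 after quantile normalization, 9 at an equal 75th percentile and 10 for 1 probe set per gene. It called 24 with a pseudocount of 1 or of 5 and 22 without trend. Both depleted arrays lay 2-fold or more to the same side of wild type for 423 probe sets, which became 93 at a pseudocount of 1, 14 at 5, 850 unfiltered, 148 under the 60th percentile filter and 158 for 1 probe set per gene. With a single depleted array, which leaves no residual degrees of freedom and so no test, the count was 1801 to 2041. No paired analysis was possible because there is 1 wild type array, so the groups share fewer than 2 replicate numbers. Dim members (Defa3, Habp2) lie near or under the array median, where a pseudocount sets the size of a difference.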
